A study of Mus musculus with 12 samples.

Results

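Ketone body metabolism in the fasted mouse kidney was examined through 4 genes chosen by name, Bdh1, Bdh2, Acat1 and Oxct1, out of 24532 genes in the deposited tables. Each of the 4 symbols matched 1 Entrez Gene identifier, and all 4 passed the filter on low values. The measurements were TPM values (transcript abundance corrected for length and scaled to 1 total in every library) from total RNA of whole kidney after an overnight fast. There were 4 groups of 3 libraries. FXR KO mice (strain label Nr1h4tm1Gonz/J, a targeted disruption of Nr1h4, which encodes FXR, the farnesoid X receptor) received GW4064, a synthetic FXR agonist, for 6 h, or vehicle. WT mice (strain label C57BL/6) received GW4064 for 6 h or vehicle. All 4 groups were fasted and none was labelled as given cisplatin, the drug named in the series title. Age, sex, dose, vehicle and the time after vehicle were not given in the labels used here. The labels do not say whether the KO and WT mice were littermates, so the disrupted allele and other differences between the strains cannot be told apart. Separate animals are not named for the replicates either, and p-values therefore describe the spread among these libraries, which may be technical.

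Ketone bodies, beta-hydroxybutyrate and acetoacetate, are fuels made from fatty acids during fasting, chiefly in liver mitochondria, and burned in heart, muscle, brain and kidney. BDH1 is the mitochondrial enzyme that interconverts beta-hydroxybutyrate and acetoacetate. OXCT1 (succinyl-CoA:oxoacid CoA-transferase, SCOT) activates acetoacetate with succinyl-CoA as donor and is the enzyme that commits a tissue to burning ketone bodies. ACAT1, a mitochondrial thiolase, splits acetoacetyl-CoA into acetyl-CoA during use, forms it during synthesis, and also acts in isoleucine breakdown. BDH2 is a cytosolic dehydrogenase that carries a similar name and is known in mice for its part in making a mammalian siderophore, an iron-binding small molecule.

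FXR is a DNA-binding receptor, and the upstream letters are shown for Bdh1 and Oxct1, the 2 members called lower in KO kidney, Oxct1 under GW4064 only and Bdh1 with and without it. RefSeq gene starts (GRCm38.p6) gave an upstream window of 250 bases for 3 of the 4 members, Bdh1, Bdh2 and Oxct1, with 2 starts for Bdh1. Acat1, the member called with GW4064 in WT, had no window and was not searched. Capitals mark matches to the nuclear receptor core letters AGGTCA or GGGTCA, searched on both strands. Both windows are on the plus strand and end at the base before the start, chr16:31422047-31422296 for the first start of Bdh1 and chr15:4026178-4026427 for Oxct1.
Bdh1: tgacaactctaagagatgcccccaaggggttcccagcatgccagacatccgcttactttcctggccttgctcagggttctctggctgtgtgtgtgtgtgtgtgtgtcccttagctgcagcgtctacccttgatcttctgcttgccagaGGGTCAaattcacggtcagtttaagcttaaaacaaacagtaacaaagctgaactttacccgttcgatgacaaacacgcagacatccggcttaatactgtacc
Oxct1: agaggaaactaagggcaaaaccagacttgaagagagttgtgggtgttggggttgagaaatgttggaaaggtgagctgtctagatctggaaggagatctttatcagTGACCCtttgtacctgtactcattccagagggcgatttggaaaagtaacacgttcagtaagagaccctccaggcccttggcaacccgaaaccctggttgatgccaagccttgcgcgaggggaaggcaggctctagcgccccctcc
Each window held 1 match, GGGTCA on the plus strand in Bdh1 and its reverse complement TGACCC in Oxct1, while the window of Bdh2 and that of the second start of Bdh1 held none. Of all 32851 windows in the table, 23.8% held at least 1 of these matches. The inverted repeat of GGTCA, any 1 base and TGACC, the letters of a classical FXR element without its outer bases, was in 0.0335% of all windows and in none of the 4 examined here. A direct repeat of GGTCA with any 2 bases between the copies was in 0.164% of all windows and in none of the 4. Binding of FXR to any of these letters was not tested.

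The depth of the 12 libraries came out at 2.86 to 4.27 mapped gigabases. It was taken as the highest ratio of deposited coverage to FPKM over genes above a low FPKM limit. This ratio differed between genes, so the depth is approximate. Nr1h4 averaged 123 TPM in KO and 212 TPM in WT GW4064 libraries, and 116 TPM in KO and 244 TPM in WT vehicle libraries, with no overlap between genotypes. These whole-gene values do not tell intact from truncated transcripts. Slc51a, a bile acid exporter subunit and FXR target, averaged 457 TPM with GW4064 and 42.1 TPM on vehicle in WT, and 30.7 and 40.8 TPM in the KO. All 8 proximal tubule markers, 4 thick ascending limb and distal tubule markers and 4 collecting duct markers on the lists were at or above 1 TPM on average. The 3 skeletal muscle markers summed to at most 0.261 TPM in any library. Fat markers (Adipoq, Plin1, Cfd, Cidec) summed to 1.5 to 37.0 TPM and varied within groups.

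All 4 enzymes were well expressed, and their order was the same in each of the 12 libraries. Oxct1 was highest at 932 to 1199.9 TPM, which placed its mean 79th among 14488 genes tested. Acat1 followed at 477 to 606 TPM, Bdh2 at 309.6 to 412 TPM and Bdh1 at 69.2 to 109 TPM. The 4 ranges did not overlap, so every neighbouring pair in this order stayed apart across genotypes and treatments. The deposited coverage was 1197 to 1837 for Oxct1, 599 to 942 for Acat1, 374 to 617 for Bdh2 and 22.7 to 42.7 for Bdh1. For Bdh1 this is lower than its TPM in number, while for the other 3 it is near or above it, and the sources used here do not say how coverage per gene was made. The pooled within-group SD on the log2(TPM + 0.5) scale was 0.044 for Oxct1, 0.056 for Acat1, 0.079 for Bdh2 and 0.088 for Bdh1, each below the median of 0.116 over all genes tested. Across the 12 libraries the highest value was 1.29 times the lowest for Oxct1, 1.27 times for Acat1, 1.33 times for Bdh2 and 1.58 times for Bdh1.

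**Figure D1:**
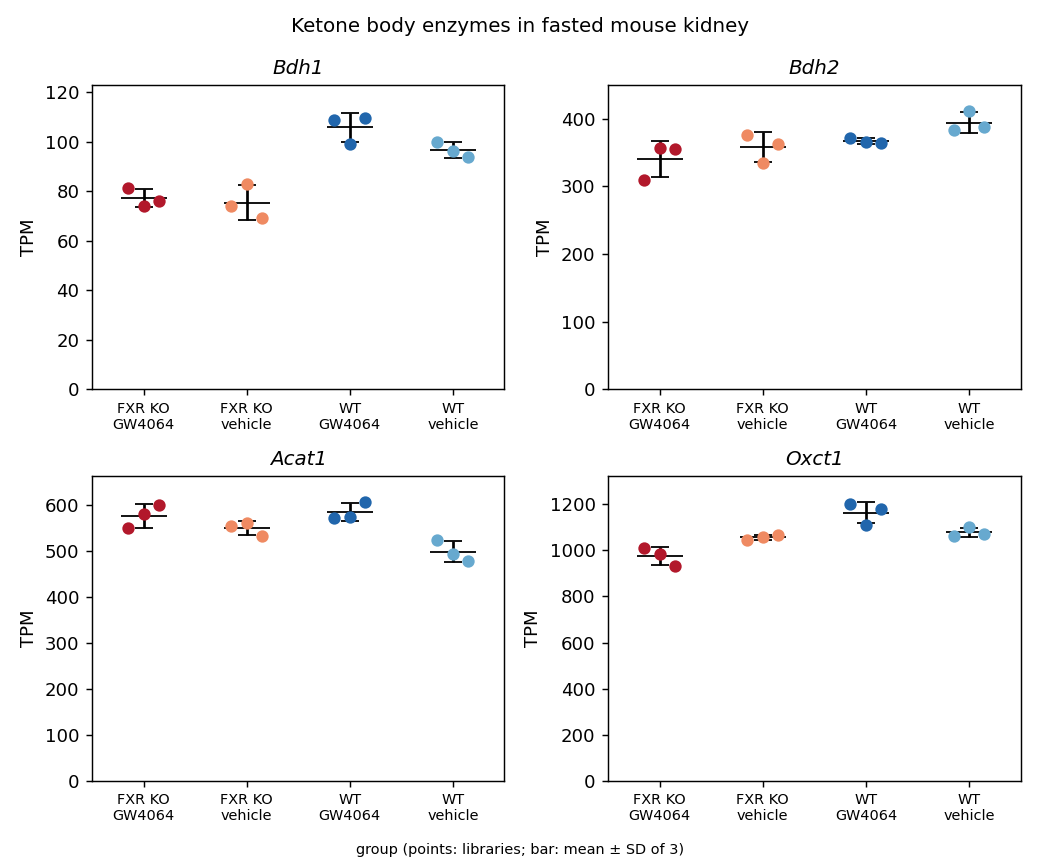
TPM of each ketone body enzyme by library in the 4 groups, each axis starting at 0; points are single libraries, and bars are the mean and SD of 3. Bdh1 lay at 69.2 to 83.0 TPM in the 6 FXR KO libraries and at 93.6 to 109 TPM in the 6 WT libraries, while the other 3 genes moved over narrower relative ranges.

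Bdh1 was lower in KO kidney, with and without GW4064. Bdh1 (Entrez Gene 71911, protein-coding, plus strand, chromosome 16, 31422297 to 31458901 in mm10, as all gene positions here) measured 73.8, 83.0 and 69.2 TPM in the KO vehicle libraries, against 99.9, 96.1 and 93.6 TPM in the WT vehicle libraries. With GW4064 it measured 81.2, 74.2 and 76.1 TPM in the KO, against 109, 99.0 and 109 TPM in WT. Each of the 6 KO libraries lay below each of the 6 WT libraries. The log2 difference, KO minus WT, was -0.36 ± 0.07 (SE) without GW4064 (adjusted p = 0.00671) and -0.45 ± 0.07 with it (adjusted p = 6.7e-04, both by limma with Benjamini-Hochberg adjustment, 3 libraries per group). These are ratios of 0.78 and 0.73. Within a genotype the GW4064 and vehicle libraries overlapped, and the log2 differences of 0.13 ± 0.07 in WT and 0.04 ± 0.07 in the KO did not pass (adjusted p = 0.315 and 0.894, limma). Their 95% confidence intervals ran from -0.02 to 0.28 and from -0.11 to 0.18. Both genotype calls held in each of the 23 alternatives run, with adjusted p of 0.00278 to 0.0387 on vehicle and 2.3e-04 to 0.00462 under GW4064 (limma). The annotated antisense transcript Gm15743 lies inside Bdh1 on the minus strand, and the sources used here do not say whether reads were counted by strand.

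Oxct1 was lower in KO than in WT kidney under GW4064. Oxct1 (Entrez Gene 67041, protein-coding, plus strand, chromosome 15, 4026428 to 4155344) measured 1009, 985 and 932 TPM in the KO GW4064 libraries, against 1199.9, 1111 and 1182 TPM in the WT GW4064 libraries. No KO library reached the lowest WT library. On vehicle it measured 1046, 1059.7 and 1065 TPM in the KO, against 1061, 1102 and 1071 TPM in WT, and these groups overlapped. The log2 difference, KO minus WT, was -0.26 ± 0.04 under GW4064 (adjusted p = 0.00139, limma, n = 3 per group), a ratio of 0.84, and held in each of 23 alternatives (adjusted p = 9.9e-04 to 0.016). On vehicle it was -0.03 ± 0.04 (adjusted p = 0.678, limma), with a 95% confidence interval of -0.12 to 0.06, and it was 0.06 with median-of-ratios scaling. The GW4064 libraries lay above the vehicle libraries in WT and below them in the KO, without overlap in either genotype. Neither change passed over all genes, at 0.11 ± 0.04 in WT and -0.12 ± 0.04 in the KO on the log2 scale (adjusted p = 0.171 and 0.343, limma). The interaction, the GW4064 effect in the KO minus that in WT, was -0.23 ± 0.06 and missed the threshold (adjusted p = 0.0651, limma). It passed with median-of-ratios scaling (-0.28) and with the deposited FPKM (-0.25), was -0.13 with quantile scaling, and adjusted p ran from 0.0312 to 0.281 over its 22 alternatives. An annotated transcript that overlaps the start of Oxct1 on the other strand, BC037032, was at 1.02 to 1.99 TPM, and a second, Gm15632, lies inside the gene.

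Marker levels of several kidney cell types differed between genotypes beside these differences of Bdh1 and Oxct1. The 8 proximal tubule markers (Slc34a1, Slc5a2, Lrp2, Cubn, Slc22a6, Slc22a8, Slc7a13, Aqp1) summed to 6074 to 6748 TPM in the KO GW4064 libraries, against 7467 to 7532 TPM in the WT GW4064 libraries. On vehicle the sums were 6810 to 7349 TPM in the KO and 7182 to 7342 TPM in WT, which overlapped. The other 5 lists below separated the genotypes without overlap in both treatments. Over all genes tested, the median log2 difference, KO minus WT, was -0.087 on vehicle and -0.030 under GW4064. With median-of-ratios scaling these medians were -0.003 and 0.002, while the marker sums are TPM as deposited. The share of all genes that separated the genotypes in this way was not counted. With GW4064 the 4 collecting duct markers summed to 302 to 348 TPM in the KO and 357 to 402 TPM in WT, and on vehicle to 356 to 384 TPM in the KO and 449 to 497 TPM in WT. The 4 thick ascending limb and distal tubule markers summed to 5207 to 5669 TPM in the KO and 5809 to 5969 TPM in WT with GW4064, and to 5640.3 to 5724 TPM in the KO and 5861 to 5974 TPM in WT on vehicle. Both of these lists were lower in the KO. The 2 podocyte markers summed to 33.3 to 36.2 TPM in the KO and 42.6 to 44.3 TPM in WT with GW4064, and to 32.0 to 34.9 TPM in the KO and 45.8 to 49.9 TPM in WT on vehicle. The 3 endothelial markers summed to 197 to 209 TPM in the KO and 210.3 to 228 TPM in WT with GW4064, and to 186 to 209 TPM in the KO and 226 to 250.1 TPM in WT on vehicle. The 3 macrophage markers were the list that was higher in the KO, at 38.0 to 48.1 TPM against 31.3 to 34.3 TPM in WT with GW4064 and 42.7 to 48.0 TPM against 35.1 to 36.4 TPM in WT on vehicle. Fat and liver marker sums overlapped between genotypes in both treatments. The part of these levels in the differences of Bdh1 and Oxct1 was not tested. In whole kidney, fewer cells of a type and less RNA per cell cannot be told apart.

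Acat1 was higher after GW4064 in WT kidney. Acat1 (Entrez Gene 110446, protein-coding, minus strand, chromosome 9, 53580522 to 53610350) measured 571, 574 and 606 TPM in the WT GW4064 libraries, against 523, 493 and 477 TPM in the WT vehicle libraries. In the KO it measured 548.5, 579 and 599 TPM with GW4064, against 555, 560.5 and 532 TPM on vehicle. The groups did not overlap in WT and overlapped in the KO. The log2 change was 0.23 ± 0.05 in WT (adjusted p = 0.0157, limma, n = 3 per group), a ratio of 1.17, and 0.07 ± 0.05 in the KO (adjusted p = 0.652, 95% confidence interval -0.04 to 0.17). These effects were not shown to differ, with an interaction of -0.16 ± 0.07 (adjusted p = 0.211, limma). The WT call was lost without WT vehicle replicate 2 (adjusted p = 0.0533), WT vehicle replicate 3 (0.0732) or WT GW4064 replicate 3 (0.0629), and adjusted p was 0.00932 to 0.0732 over 23 alternatives (limma). Beside this, the proximal tubule markers summed to 7467 to 7532 TPM in the WT GW4064 libraries and 7182 to 7342 TPM in the WT vehicle libraries, and the 4 collecting duct markers to 357 to 402 TPM with GW4064 and 449 to 497 TPM on vehicle. Podocyte markers (42.6 to 44.3 TPM with GW4064 and 45.8 to 49.9 TPM on vehicle) and macrophage markers (31.3 to 34.3 TPM with GW4064 and 35.1 to 36.4 TPM on vehicle) did not overlap either. The median log2 change with GW4064 in WT over all genes tested was -0.034, and the share of genes without overlap was not counted. Fat markers summed to 1.5 to 37.0 TPM with GW4064 and 20.3 to 30.5 TPM on vehicle. In WT the sums of the thick ascending limb and distal tubule, endothelial and liver markers also overlapped between GW4064 and vehicle. The part of these levels in the change of Acat1 was not tested. Between genotypes on vehicle, each KO library lay above each WT library, with a log2 difference of 0.14 ± 0.05 that missed the threshold (adjusted p = 0.0658) and passed with median-of-ratios scaling (0.23, adjusted p = 0.0211) and with FPKM (0.17, adjusted p = 0.043, range over 23 alternatives 0.0211 to 0.208, limma). Under GW4064 it was -0.02 ± 0.05 (adjusted p = 0.801, 95% confidence interval -0.12 to 0.08).

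Bdh2 passed no test. Bdh2 (Entrez Gene 69772, protein-coding, plus strand, chromosome 3, 135281221 to 135304425) measured 309.6, 357 and 356 TPM in the KO GW4064 libraries, 377, 334 and 363 TPM in the KO vehicle libraries, 372, 365 and 363 TPM in the WT GW4064 libraries and 383.5, 412 and 388 TPM in the WT vehicle libraries. The 3 WT vehicle libraries were the highest of the 12. The log2 difference, KO minus WT, was -0.14 ± 0.06 on vehicle and -0.11 ± 0.06 under GW4064 (adjusted p = 0.14 and 0.237, limma), with 95% confidence intervals of -0.27 to -0.01 and -0.24 to 0.02. The GW4064 differences were -0.10 ± 0.06 in WT and -0.07 ± 0.06 in the KO (adjusted p = 0.385 and 0.714, limma). The genotype difference on vehicle was -0.09 without KO vehicle replicate 2 and -0.05 with median-of-ratios scaling, and that under GW4064 was -0.04 without KO GW4064 replicate 1. The GW4064 difference in the KO ran from -0.12 without KO vehicle replicate 2 to -0.01 without KO GW4064 replicate 1. The lowest library, KO GW4064 replicate 1, was also the library with the highest Bdh1 value of its group.

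**Figure D2:**
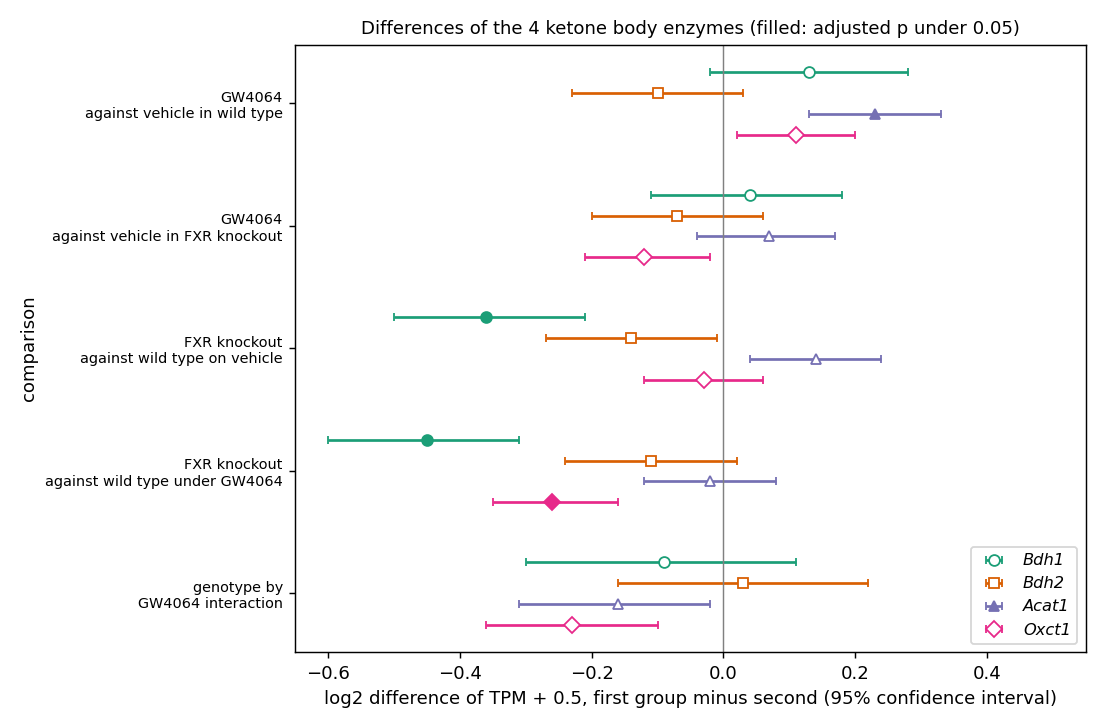
Log2 differences (x axis, TPM + 0.5, first group minus second) of the 4 enzymes in each comparison (y axis), with 95% confidence intervals; filled symbols passed at an adjusted p under 0.05. Filled symbols are Acat1 for GW4064 in WT (0.23), Bdh1 in both genotype comparisons (-0.36 and -0.45) and Oxct1 in the genotype comparison under GW4064 (-0.26).

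Read against the whole table, 1 of the 4 members rose with GW4064 in WT, where 4.80% of the genes tested were called, 2.48% higher and 2.32% lower (360 and 336 genes, or 458 and 226 with median-of-ratios scaling). With GW4064 in the KO, 0 of 4 members were called by limma, beside 0.0138% of genes called, 0.00690% in each direction. An unadjusted p under 0.05 was reached there by 1 member (Oxct1) and by 1560 of the 14488 genes tested (limma). On vehicle 1 of 4 was lower in the KO, where 9.73% of genes tested were called lower, 3.19% higher and 12.9% in all (462 higher and 1410 lower, or 846 and 533 with median-of-ratios scaling). Under GW4064, 2 of 4 were lower in the KO, where 11.4% were called lower, 7.08% higher and 18.5% in all (1026 higher and 1651 lower, or 1244 and 1317 with median-of-ratios scaling). For the interaction 0 of 4 were called by limma, beside 3.19% of genes called, 1.47% higher and 1.72% lower (213 and 249 genes, or 138 and 362 with median-of-ratios scaling). Its unadjusted p was under 0.05 for 2 members (Acat1 and Oxct1) and for 2756 of the 14488 genes tested (limma). Over the 4 members the median log2 difference was 0.12 for GW4064 in WT and -0.18 for the KO against WT under GW4064, beside medians of -0.03 for both over all genes. It was -0.08 for the KO against WT on vehicle beside -0.09 over all genes, -0.02 for GW4064 in the KO beside 0.02, and -0.13 for the interaction beside 0.05. The comparisons share groups: the WT vehicle libraries, for example, serve both the GW4064 comparison in WT and the genotype comparison on vehicle.

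Ratios between genes, chosen after their values were seen, are given as a description with no test. The ratio of Oxct1 to Acat1 TPM was 1.84, 1.70 and 1.56 in the KO GW4064 libraries, 1.89, 1.89 and 2.0 in the KO vehicle libraries, 2.10, 1.94 and 1.95 in the WT GW4064 libraries and 2.03, 2.24 and 2.25 in the WT vehicle libraries. The 3 KO GW4064 libraries had the lowest ratios of the 12. The ratio of Bdh2 to Bdh1 TPM was 3.82, 4.81 and 4.68 in the KO GW4064 libraries, 5.10, 4.02 and 5.25 in the KO vehicle libraries, 3.42, 3.69 and 3.32 in the WT GW4064 libraries and 3.84, 4.28 and 4.14 in the WT vehicle libraries. The 3 WT GW4064 libraries had the lowest of these ratios, and the other groups overlapped.

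**Figure D3:**
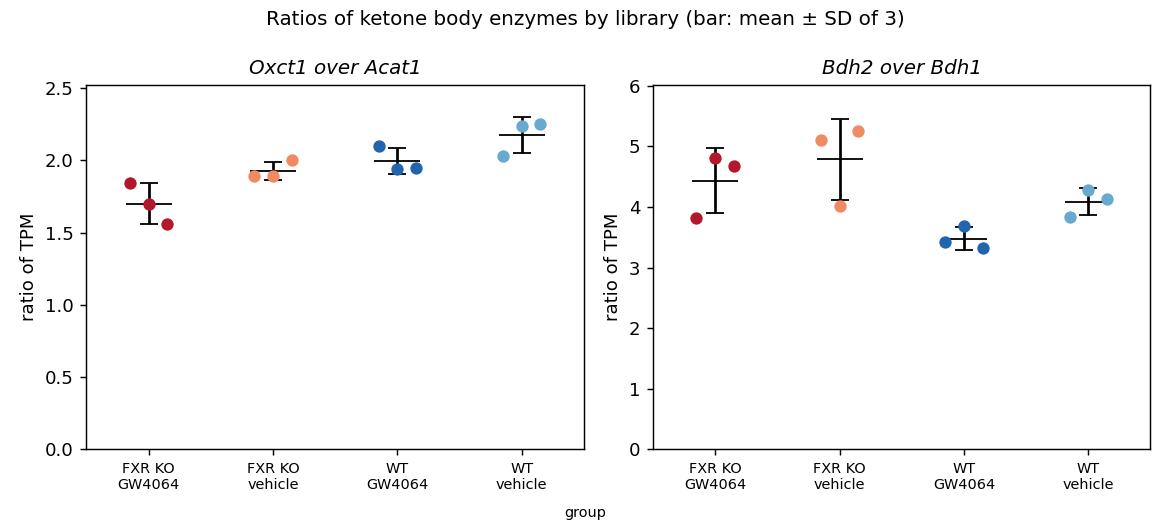
Ratio of TPM values per library for Oxct1 over Acat1 (left) and Bdh2 over Bdh1 (right) in the 4 groups; points are libraries, bars the mean and SD of 3, and axes start at 0. The Oxct1 to Acat1 ratio lay at 1.56 to 1.84 in the 3 FXR KO GW4064 libraries, below the other 9, and the Bdh2 to Bdh1 ratio at 3.32 to 3.69 in the 3 WT GW4064 libraries.

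Of 19 other genes of ketone body metabolism, transport and signalling, 13 could be tested. The other 6 (Oxct2a, Oxct2b, Slc16a3, Hcar2, Ffar3 and Fgf21) stayed at or under 0.878 TPM in every library. In the KO on vehicle 2 were higher and 4 lower, and under GW4064 3 were higher and 6 lower, with list medians of -0.20 and -0.22 beside -0.09 and -0.03 over all genes. The shares of all genes tested that were called were 3.19% higher and 9.73% lower on vehicle, and 7.08% and 11.4% under GW4064. With GW4064, 1 fell in WT (Ppara, the fasting-response nuclear receptor, -0.42 ± 0.08) and 1 rose in the KO (Slc16a1). Of all genes tested, 2.32% were called lower with GW4064 in WT and 0.00690% higher in the KO.

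Among the enzymes of this list, Hmgcs1, which feeds cholesterol synthesis, averaged 391 ± 18.4 TPM in KO and 614 ± 5.63 TPM in WT GW4064 libraries, and 425 ± 14.3 TPM in KO and 549 ± 14.9 TPM in WT vehicle libraries (SD, n = 3 each). Its log2 differences were -0.65 ± 0.04 and -0.37 ± 0.04 (adjusted p = 1.9e-06 and 3.9e-04, limma). Under GW4064 the cytosolic thiolase Acat2 (-0.35 ± 0.06) and acetoacetyl-CoA synthetase Aacs (-0.77 ± 0.17) were lower too (adjusted p = 0.00164 and 0.00927, limma). On vehicle Acat2 was at 0.00 ± 0.06 and Aacs at -0.36 ± 0.17, and neither passed (adjusted p = 0.971 and 0.174, limma). Hmgcll1, which encodes a lyase outside mitochondria, averaged 1.48 TPM in KO and 2.51 TPM in WT GW4064 libraries and was lower (-0.61 ± 0.18, adjusted p = 0.0359), a call lost without any 1 of the 6 GW4064 libraries (adjusted p up to 0.109, limma).

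Of the carriers tested, Slc16a1 and Slc16a6 were higher and Slc5a8 lower in the KO, and Slc16a7 and Slc5a12 did not pass. Slc16a1 (MCT1, a proton-linked carrier of lactate and ketone bodies) averaged 170 ± 9.24 TPM in KO and 23.9 ± 3.22 TPM in WT GW4064 libraries, and 101 ± 10.4 TPM in KO and 23.0 ± 1.59 TPM in WT vehicle libraries (SD, n = 3 each). The log2 differences were 2.81 ± 0.10 and 2.11 ± 0.10 (adjusted p = 1.2e-08 and 4.9e-07, limma). Its rise with GW4064 in the KO (0.75 ± 0.10, adjusted p = 0.0492) was lost in 17 of 23 alternatives, among them removal of any 1 of 9 libraries (the exceptions being replicate 2 of WT GW4064, of KO vehicle and of KO GW4064, adjusted p up to 0.24, limma). Slc16a6, a related carrier, was higher in the KO on vehicle (0.69 ± 0.13) and under GW4064 (0.68 ± 0.13, adjusted p = 0.00782 and 0.00407, limma). Slc5a8 (SMCT1, a sodium-coupled carrier that recovers lactate and ketone bodies from the filtrate) averaged 175 ± 9.35 TPM in KO and 327 ± 9.64 TPM in WT GW4064 libraries, and 163 ± 8 TPM in KO and 353 ± 7.4 TPM in WT vehicle libraries (SD, n = 3 each). Its log2 differences were -0.90 ± 0.05 and -1.12 ± 0.05 (adjusted p = 5.4e-07 and 3.6e-07, limma). Slc5a8 lies on chromosome 10, 525 kb from the disrupted Nr1h4, so linkage to the disrupted locus and loss of the receptor cannot be told apart for this gene. The log2 difference, KO minus WT, was -0.19 ± 0.08 under GW4064 and -0.20 ± 0.08 on vehicle for Slc16a7, and -0.22 ± 0.13 and -0.12 ± 0.13 for Slc5a12. The MCT1 chaperone Bsg passed no test either, at 504 to 564 TPM across the 12 libraries.

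**Figure D4:**
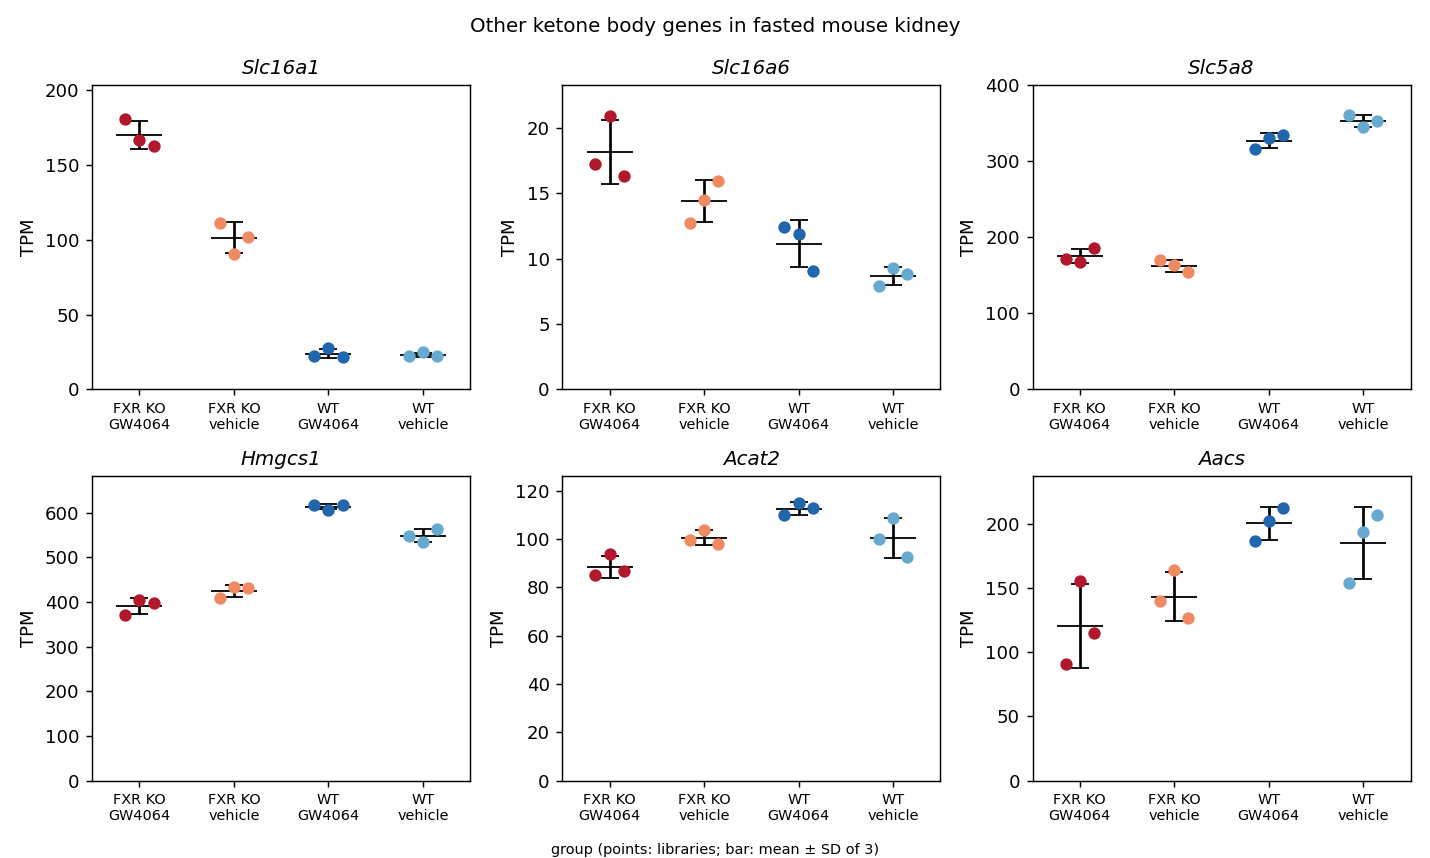
TPM by library of 6 other ketone body genes in the 4 groups, each axis starting at 0; points are libraries, and bars are the mean and SD of 3. Slc16a1 and Slc16a6 lay higher and Slc5a8 and Hmgcs1 lower in all 6 FXR KO libraries than in any of the 6 WT libraries.

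Among regulators, Ppargc1a, a coactivator of mitochondrial genes, was lower in the KO on vehicle (-0.20 ± 0.05, adjusted p = 0.017) and under GW4064 (-0.31 ± 0.05, adjusted p = 6.9e-04, limma). The mitochondrial deacetylase Sirt3 was lower on vehicle (-0.21 ± 0.05, adjusted p = 0.0216) but not under GW4064 (-0.03 ± 0.05, adjusted p = 0.749, limma). Ppara was higher in the KO under GW4064 (0.32 ± 0.08, adjusted p = 0.0147) but not on vehicle (0.02 ± 0.08, adjusted p = 0.903, limma). It averaged 105 TPM in KO and 83.9 TPM in WT GW4064 libraries, and 114 and 113 TPM on vehicle. The vehicle call of Ppargc1a was lost without WT vehicle replicate 1 or 2 or KO vehicle replicate 2 (adjusted p up to 0.173 over all alternatives). That of Sirt3 was lost without any vehicle library other than KO replicate 2 (up to 0.229, limma). The call of Ppara under GW4064 was lost without WT GW4064 replicate 1 or KO GW4064 replicate 2 (up to 0.0555, limma). Both vehicle calls were also lost with median-of-ratios and with quantile scaling, and that of Ppargc1a with a fit of the compared groups.

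Of 9 genes on either side of the OXCT1 and ACAT1 reactions, 2 were higher (Hadh, 0.21 ± 0.04, and Hadhb, 0.18 ± 0.05) and 1 lower (citrate synthase Cs, -0.17 ± 0.04) in the KO on vehicle. Under GW4064 3 were higher (Hadh, 0.17 ± 0.04, Hadha, 0.32 ± 0.06, and Hadhb, 0.21 ± 0.05) and none was lower. Hadh, Hadha and Hadhb encode enzymes of mitochondrial fatty acid oxidation, as do Acaa2 (-0.01 ± 0.06) and Echs1 (-0.01 ± 0.05) of the same list, which did not pass under GW4064 (adjusted p = 0.957 and 0.893, limma). Over all genes tested, the called shares were 3.19% higher and 9.73% lower on vehicle, and 7.08% and 11.4% under GW4064. The list medians were 0.11 and 0.05 beside -0.09 and -0.03 over all genes. The vehicle call of Hadhb was lost in 15 of 23 alternatives (adjusted p up to 0.147, limma). Among them were removal of any 1 of 10 libraries (the exceptions being replicates 1 and 2 of KO GW4064), no filter and quantile scaling. The others were no variance trend, a fit of the compared groups and a replicate block. Its GW4064 call was lost without WT replicate 3 or KO replicate 1 or 3 (up to 0.0567, limma). The vehicle call of Cs was lost without WT vehicle replicate 1 or 3 or KO vehicle replicate 1 or 2. It was also lost with median-of-ratios scaling and with no variance trend (up to 0.237, limma). With GW4064, 0 of 9 were called in either genotype by limma, beside 4.80% of all genes tested in WT and 0.0138% in the KO. Unadjusted p was under 0.05 for 1 in each (Cs in WT, Hadha in the KO). The same held for 2793 of the 14488 genes tested in WT and 1560 in the KO (limma).

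In the breakdown of leucine and isoleucine, which feeds HMG-CoA and the ACAT1 reaction, 10 genes were tested. On vehicle 1 was higher in the KO (Bckdha, 0.18 ± 0.03) and 1 lower (Bcat2, -0.35 ± 0.07). Under GW4064 2 were higher (Bckdha, 0.16 ± 0.03, and Auh, 0.15 ± 0.04) and 2 lower (Dbt, -0.31 ± 0.07, and Hsd17b10, -0.16 ± 0.05). Of all genes tested, 3.19% were called higher and 9.73% lower on vehicle (12.9% in all), and 7.08% and 11.4% under GW4064 (18.5% in all). The list medians were -0.08 and -0.04 beside -0.09 and -0.03 over all genes. The Bcat2 call was lost with median-of-ratios scaling (adjusted p = 0.0544, the highest of its 23 alternatives, limma). The Dbt call was lost without WT GW4064 replicate 1 and with a fit of the compared groups (adjusted p up to 0.0602, limma). Auh lost its call without WT GW4064 replicate 1 or 3 or KO GW4064 replicate 2 or 3, and with a fit of the compared groups (up to 0.0728). Hsd17b10 lost its call without WT GW4064 replicate 2 or 3 or KO GW4064 replicate 1. It was also lost under quantile or median-of-ratios scaling, with no variance trend and with a fit of the compared groups (up to 0.14, limma). With GW4064, 0 of 10 were called in either genotype by limma, beside 4.80% of all genes tested in WT and 0.0138% in the KO. Unadjusted p was under 0.05 for 2 in WT (Bcat2 and Auh) and 1 in the KO (Hsd17b10). The same held for 2793 of the 14488 genes tested in WT and 1560 in the KO (limma).

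The genes with the most similar pattern to each member were listed by the root mean square difference of centred log2(TPM + 0.5) values over the 12 libraries, among 10977 candidates with a mean of at least 5 TPM. Nearest to Bdh1 were the adhesion receptor gene Adgre5 (0.071), the kinase gene Mknk2 (0.078) and Dclk3 (0.079), against a median of 0.229 over the candidates. Nearest to Oxct1 were the vesicle-coat GTPase gene Sar1a (0.041), the apolipoprotein gene Apom (0.042) and Ythdf3 (0.043), against 0.144. For Acat1 they were the autophagy gene Dram2 (0.047), Mrrf (0.058) and the protein C gene Proc (0.061), against 0.169. For Bdh2 they were the mitochondrial ribonuclease gene Lactb2 (0.044), Dhx30 (0.049) and Tmem72 (0.052), against 0.142. The libraries share their normalization and group structure, and the distances are a description with no test.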

How the data were processed

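Kidney total RNA libraries were made by the authors with the Illumina TruSeq Stranded kit, per the labels' protocols. HISAT2, StringTie and Cufflinks on mm10 are named per the submitters' processing notes. Their versions and order, the annotation and the strand setting were not found in these sources. The authors deposited, per the file headers, coverage, FPKM and TPM for each gene, 1 table per library. The deposited TPM sum to 1000000 in each library, the deposited FPKM equal TPM times 1 factor per library, and the deposited coverage signal was used only for depth.

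Entries of 1 gene identifier were summed (113 to 142 identifiers per library had several), and RefSeq symbols were found for 24462 of 24532 identifiers. Values were transformed as log2(TPM + 0.5), so changes of low genes are understated. Genes under 1 TPM in all but 2 or fewer libraries were left out, which kept 14488. All 12 libraries entered 1 fit of 4 group means in limma 3.58.1 (R 4.3.3, variance trend), with Benjamini-Hochberg adjustment over all genes tested within each comparison and calls at an adjusted p under 0.05. The code was tested on simulated data. Errors are SD beside TPM and ratios, and SE beside log2 differences. Python 3.11.15 served for other steps.

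No read counts were used, so no counting interval is given. Alternatives were other pseudocounts, filters, scalings, FPKM, variance models, library weights, fits of the compared groups, a replicate block and removal of each library. The members and gene lists were chosen with earlier results of these data known. Named genes were the 4 members, Nr1h4 and Slc51a as checks, all called genes of the 3 lists, and the 3 genes of most similar pattern per member. Uncalled list genes named beside them (Slc16a7, Slc5a12, Bsg, Acaa2, Echs1, Suclg1, Sucla2, Suclg2 and those too low to test) were chosen after their values were seen. Some genes of the pathway are not reported here, and list counts and medians leave them out.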

Additional observations from a re-analysis of the deposited data

Results flagged for a closer look

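For 4 named genes the GW4064 effect differed between KO and WT by the test of the interaction itself, given as the log2 change in the KO minus that in WT (limma, Benjamini-Hochberg adjusted over all genes, n = 3 per group). None of the 4 ketone body enzymes Bdh1, Bdh2, Acat1 and Oxct1 was among them at an adjusted p under 0.05. Of the 13 other ketone body genes tested, 1 was called higher (Slc16a1) and 2 lower (Hmgcs1 and Acat2). In the lists of 9 and 10 genes 0 were called, and the remaining gene, Slc51a, was chosen as a check. Over all genes tested 3.19% were called, 1.47% higher and 1.72% lower. An unadjusted p under 0.05 was found for 2 of these 4 (Acat1 and Oxct1) and for 2756 of the 14488 genes tested (limma).

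Slc16a1 differed by 0.70 ± 0.14 (adjusted p = 0.0197), with changes of 0.75 ± 0.10 in the KO and 0.05 ± 0.10 in WT. The call was lost without WT GW4064 replicate 1 (adjusted p = 0.0591, the highest of its 22 alternatives, limma).

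Hmgcs1 differed by -0.28 ± 0.06 (adjusted p = 0.0267), a call lost without WT vehicle replicate 1 or 2, any WT GW4064 library or KO vehicle replicate 3, and with no variance trend (adjusted p up to 0.0742, limma). Acat2 differed by -0.35 ± 0.08 (adjusted p = 0.0439), a call lost without any 1 of 10 libraries (the exceptions being WT vehicle replicate 2 and KO GW4064 replicate 2), and with no filter, quantile scaling or no variance trend (adjusted p up to 0.0984, limma). Slc51a, the check of the treatment, differed by -3.83 ± 0.17 (adjusted p = 1.3e-06), with a highest adjusted p of 4.3e-05 over 22 alternatives (limma).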

How the results depend on the processing

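Of 456 values of the 20 member results under alternatives, 438 kept their direction and side of the threshold, 3 lost a call, 4 gained one and 11 changed sign, all of these for differences that passed under none. The cause of these changes was not tested. With median-of-ratios scaling the KO against WT difference was 0.23 for Acat1 and 0.06 for Oxct1 on vehicle and 0.01 for Acat1 under GW4064, and the interaction was -0.28 for Oxct1 and -0.02 for Bdh2. With FPKM, Acat1 on vehicle gave 0.17 and the Oxct1 interaction -0.25, both past the threshold. Leaving out 1 library gave 0.20 to 0.27 for Acat1 with GW4064 in WT, -0.05 to 0.01 for Acat1 between genotypes under GW4064, -0.02 to 0.11 for Bdh1 with GW4064 in the KO, -0.02 to 0.10 for the Bdh2 interaction and -0.06 to 0.12 for Slc16a1 with GW4064 in WT.

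Counts of called genes over the whole table ranged, when 1 library was left out, from 334 to 768 (696 with all 12) for GW4064 in WT, 0 to 51 (2) for GW4064 in the KO, 926 to 1903 (1872) between genotypes on vehicle, 1726 to 2760 (2677) under GW4064 and 216 to 535 (462) for the interaction. Apart from GW4064 in the KO, counts moved by over 1.5 times without WT vehicle replicate 1 (449 for GW4064 in WT, 960 between genotypes on vehicle, 283 for the interaction) or 3 (390, 926 and 257), WT GW4064 replicate 1 (334 for GW4064 in WT, 1726 between genotypes under GW4064, 216 for the interaction) or 2 (407 for GW4064 in WT, 295 for the interaction), KO vehicle replicate 1 (1155 on vehicle, 231 for the interaction) or 2 (1116 on vehicle), or KO GW4064 replicate 3 (272 for the interaction). For GW4064 in the KO the count was 51 without KO GW4064 replicate 2, 31 without KO vehicle replicate 2, 2 without WT GW4064 replicate 2, 0 without WT vehicle replicate 2, KO vehicle replicate 1 or KO GW4064 replicate 3, and 1 without any of the other 6 libraries. The 2 calls for GW4064 in the KO became 1 with a pseudocount of 0.1 TPM, median-of-ratios scaling, quantile scaling or array weights, and 0 with no variance trend or a fit of the compared groups.

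The deviations of same-numbered libraries from their group means correlated at -0.075 to 0.061, and 0 of 12 pairs were over 0.1. The labels do not say whether replicate numbers pair the libraries, and low correlations cannot show that they do not. With a replicate block the counts were 675 for GW4064 in WT, 0 for GW4064 in the KO, 1785 and 2633 between genotypes on vehicle and under GW4064, and 442 for the interaction, and no call of the 4 members changed. No counts were used, so what depth limits was not assessed.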

Other observations

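Suclg2, which encodes a subunit of succinyl-CoA synthetase and so acts beside the OXCT1 reaction, took 2 separate levels within the KO groups. It measured 309.9, 315 and 188.5 TPM in the KO GW4064 libraries and 310.5, 183 and 195 TPM in the KO vehicle libraries, against 189 to 202 TPM in WT GW4064 and 189 to 194 TPM in WT vehicle libraries. The 3 high libraries (KO GW4064 replicates 1 and 2 and KO vehicle replicate 1) stood above the other 9, which lay between 183 and 202 TPM. Suclg1 and Sucla2, which encode other subunits of succinyl-CoA synthetases, passed no test. Suclg2 was singled out after its values were seen, and its own genotype differences did not pass (0.42 ± 0.20 under GW4064 and 0.23 ± 0.20 on vehicle on the log2 scale, adjusted p = 0.182 and 0.484, limma).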
